A study of Arabidopsis thaliana with 72 samples.

Results

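Starch breakdown genes of Arabidopsis leaves were followed in a study of plasmodesmal closure, in which the channels between plant cells are shut on demand. The 10 genes were taken by their identifiers from a matrix of 33602 genes and were chosen for their place in the pathway: GWD1 (also called SEX1), PWD, SEX4, LSF1, BAM1, BAM3, BAM4, DPE1, DPE2 and MEX1. All 10 passed the filter on low counts, and the lowest count of any of them in any of 72 libraries was 527. Leaves of 5-week-old plants of the Columbia-0 wild type (Col-0) and of the estradiol-inducible lines LexA::icals3m (icals3m) and LexA::PD-Plug (PD-plug) were painted on both faces with 20 µM β-Estradiol 17-acetate (called estradiol here) or with 0.1% DMSO as mock, each with 0.01% of the wetting agent Silwet L-77. In each of the inducible lines estradiol switches on a construct that closes plasmodesmata. Col-0 carries neither construct and serves as the control for estradiol itself, and the number of independent transformants behind each line is not given in the sources used here. The sample labels give no DMSO content for the estradiol paint. A difference between estradiol and DMSO leaves can therefore include one of solvent. Plants grew on plates with 1% sucrose under 10 h of light at 22 °C, and 2 leaves from 4 plants made a sample at 12, 24, 48 or 72 h after painting, which gives 24 groups of 3 biological replicates. The clock hour of painting and of harvest is not given in the sources used here.

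Leaves lay down starch in the chloroplast by day and take it apart at night to feed sucrose synthesis. Dikinases first phosphorylate glucan chains at the granule surface, phosphatases remove these phosphates again, and β-amylases cut maltose from the opened chains. Maltose leaves the chloroplast through a dedicated exporter and is used in the cytosol, while short leftover glucans are rebuilt inside the chloroplast. In Arabidopsis leaves the transcripts of many of these genes are known to cycle over the day, so the hour at which a leaf is taken bears on every comparison between times.

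Each library held between 33207020 and 55367880 counts, and levels are given as CPM, counts scaled to a common library size with TMM, a correction for libraries whose RNA make-up differs. Differences are log2 fold changes from quasi-likelihood F tests in edgeR, adjusted by Benjamini-Hochberg over 21241 genes, and a gene was called at an adjusted p under 0.05. The samples were leaf by their markers, with 5 mesophyll markers summed to between 16686 and 51909.5 CPM. Of 3 root genes RHD6 and COBL9 were at 0 in all 72 libraries. A count of 0 allows a level of up to 0.0903 CPM by counting error in the shallowest library. The third root gene, PYK10, had group means from 0.153 CPM in Col-0 12 h DMSO to 8.45 CPM in icals3m 24 h estradiol. Bulk RNA cannot tell fewer cells of a type from less RNA per cell. The PD-plug 48 h estradiol library of replicate 1 stood apart in how its total compared between the deposited matrices (a ratio of 1.37 against 1.90 to 2.07 elsewhere), and its values of the 10 genes lay beside those of its replicates. Nothing in the labels beyond the words biological replicates says how plants were divided, so p-values measure the spread between these samples.

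A second deposited matrix, named after the aligner STAR, holds far fewer counts for several of these genes and was used only as an alternative. It held a median of 78.3% of the main count for BAM3, but 15.8% for MEX1, 16.5% for GWD1 and 7.28% for SEX4, against 49.8% of the library totals. For SEX4 that share ran from 0.644% to 11.9% between libraries, and for PWD from 5.00% to 49.8%. Calls lost in the STAR matrix are named or counted below, and of 30 calls of treatment for these genes 18 were lost in it. LSF1 overlaps the abundant carbonic anhydrase gene CA1 (AT3G01500) on its own strand, and BAM3 and BAM4 overlap other genes on the opposite strand. Whether counting used strand is not given in the sources used here, so the split of reads at these loci is uncertain.

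The 250 bases before the annotated start of each gene were read from RefSeq's TAIR10.1 assembly, on the gene's strand. They were searched on both strands for short motifs known from plant promoters. The evening element AAAATATCT, bound by morning clock factors, was found in PWD only among the 10 and in 2.36% of 27443 promoters. The related CCA1-binding site AAAAATCT was found in DPE2 and in 6.69% of promoters, and the G-box CACGTG in LSF1 and DPE1 and in 6.49%. The I-box GATAAG (12.3% of promoters) and TATCCA (13.6%) were in none of the 10 windows, and sequence further upstream was not searched. The windows with a match are shown because the levels of these genes over time and, for DPE2, in icals3m leaves are described in what follows. BAM3, whose Col-0 DMSO means take the same order over the 4 times as those of PWD, holds none of these motifs in its window. Capitals mark the matched bases, and in PWD and DPE2 the match is on the opposite strand. They lie at chr5:9261229-9261478 (plus strand) for PWD, chr2:17044682-17044931 (plus) for DPE2, chr3:201811-202060 (minus) for LSF1 and chr5:25928880-25929129 (minus) for DPE1, and a match is a description of letters, not evidence of binding.
PWD: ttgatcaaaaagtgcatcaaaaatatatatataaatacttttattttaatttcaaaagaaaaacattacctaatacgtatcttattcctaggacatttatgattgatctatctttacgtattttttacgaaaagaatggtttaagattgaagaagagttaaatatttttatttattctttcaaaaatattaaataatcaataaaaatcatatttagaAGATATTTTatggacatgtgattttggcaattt
DPE2: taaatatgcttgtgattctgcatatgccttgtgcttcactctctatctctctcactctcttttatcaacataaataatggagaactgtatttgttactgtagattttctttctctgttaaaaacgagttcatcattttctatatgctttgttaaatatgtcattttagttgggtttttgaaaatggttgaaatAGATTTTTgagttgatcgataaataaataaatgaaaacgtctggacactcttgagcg
LSF1: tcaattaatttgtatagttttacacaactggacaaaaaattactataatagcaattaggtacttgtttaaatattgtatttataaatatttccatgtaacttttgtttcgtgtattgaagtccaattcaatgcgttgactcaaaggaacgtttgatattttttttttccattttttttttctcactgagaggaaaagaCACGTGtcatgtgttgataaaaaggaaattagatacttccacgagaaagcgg
DPE1: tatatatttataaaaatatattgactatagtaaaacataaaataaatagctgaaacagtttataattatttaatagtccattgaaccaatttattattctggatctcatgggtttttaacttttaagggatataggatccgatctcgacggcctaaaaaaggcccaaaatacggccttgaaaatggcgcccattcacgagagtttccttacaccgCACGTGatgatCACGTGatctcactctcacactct

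Sampling at 24, 48 and 72 h would share an hour of day if all leaves had been painted together, yet clock transcripts differed widely among these times. CCA1, a morning-phased repressor of the clock, stood in the Col-0 DMSO libraries at 185, 188 and 197 CPM at 24 h, then at 14.0, 13.8 and 16.2 CPM at 48 h. At 72 h it stood at 1.80, 2.55 and 2.56 CPM and at 12 h at 1.01, 0.647 and 0.719 CPM, so that it was high in the 24 h leaves and low in the others. TOC1, an evening-phased partner of CCA1, ran the other way, with 10.9, 13.0 and 11.2 CPM at 24 h against 352, 362 and 333 CPM at 72 h. GI, which peaks late in the day, had means of 1.31 ± 0.299, 81.3 ± 10.9, 257 ± 29.9 and 169 ± 29.7 CPM (SD, n = 3) at 12, 24, 48 and 72 h. LHY followed CCA1, with 20.2, 17.1 and 21.3 CPM at 24 h, then 0.812, 0.582 and 0.804 CPM at 72 h. All 9 clock genes differed among 24, 48 and 72 h in DMSO leaves of each genotype by edgeR's 2-degree-of-freedom test. Of all genes 40.0% did in Col-0, 42.5% in icals3m and 42.0% in PD-plug. Hour of day, time since painting and leaf age therefore cannot be told apart between times here. Treatment was compared within a time, where both arms share the hours after painting, and whether they also share the hour of day is not given in the sources used here.

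**Figure D1:**
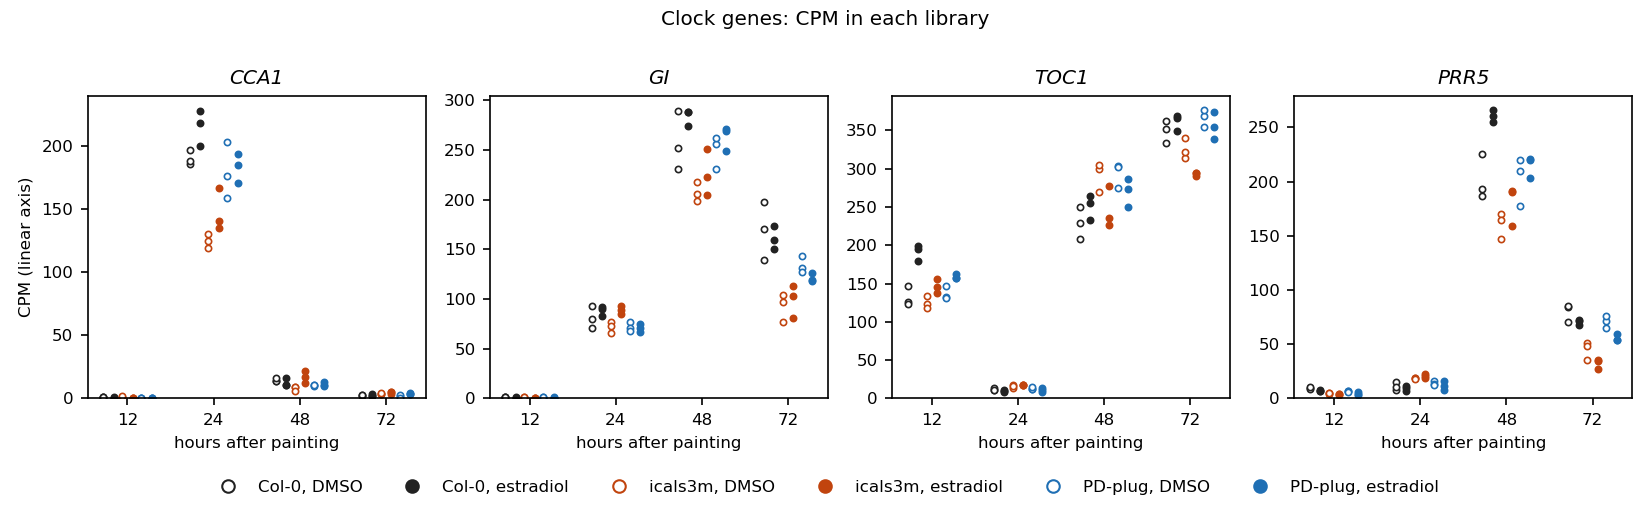
CPM on a linear axis of CCA1, GI, TOC1 and PRR5 against hours after painting in each of the 72 libraries, with open points for DMSO and filled points for estradiol. CCA1 was high at 24 h only, TOC1 was lowest at 24 h and highest at 72 h, and GI and PRR5 were highest at 48 h in every genotype.

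Of the 10 genes 9 differed more between times than between treatments, all but BAM4. Between the lowest and the highest of the 4 times in Col-0 DMSO leaves the mean of SEX4 went from 31.6 to 318 CPM. DPE2 differed 8.32-fold, GWD1 8.03-fold and PWD 5.76-fold, and MEX1, LSF1 and DPE1 differed 5.02-, 4.99- and 4.95-fold. BAM3 and BAM1 differed 3.20- and 2.94-fold. BAM4 differed 1.33-fold, less than its largest treatment difference of 1.47-fold, in icals3m at 48 h. The largest treatment difference of any of the 10 genes, in any genotype and time, was 1.97-fold, in BAM3. In Col-0 DMSO leaves all 10 differed between 12 h and the mean of the later times, 9 lower at 12 h and BAM4 higher. Of all genes tested 67.3% differed in this way, and 50.4% of those called were higher at 12 h. How many had no overlap between times was not computed. In icals3m 8 were lower at 12 h and BAM3 higher, where 61.0% of all genes differed and 50.6% of those called were higher. In PD-plug 9 were lower, where 64.5% of all genes differed and 32.0% were lower. Among 24, 48 and 72 h, 9 of the 10 differed in each genotype, all but BAM4, against 40.0% of all genes in Col-0, 42.5% in icals3m and 42.0% in PD-plug. In the STAR matrix 3 of the 28 calls between 12 h and later and 6 of the 27 among the later times were lost. Among those between 12 h and later were SEX4 in icals3m (-1.23, adjusted p = 0.0739) and PWD in PD-plug (-0.71, adjusted p = 0.0751). Among those at the later times were SEX4 in Col-0 (adjusted p = 0.354) and in PD-plug (adjusted p = 0.131). LSF1 was lost among the later times in all 3 genotypes (adjusted p from 0.0681 to 0.104).

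Among the glucan phosphorylation genes GWD1 rose steeply from 12 h on, and PWD only after 24 h. GWD1 (AT1G10760, chr1:3580830-3590928, minus strand in TAIR10.1), the glucan water dikinase that starts the process, stood in Col-0 DMSO libraries at 322, 272 and 263 CPM at 12 h, then 621, 731 and 656 CPM at 24 h. It stood at 2017, 2301 and 1810.4 CPM at 48 h, then 2465, 2345 and 2071 CPM at 72 h, and no library of 12 or 24 h reached those of 48 or 72 h. PWD (AT5G26570, chr5:9261479-9267732, plus strand), which phosphorylates chains that GWD1 has already marked, was instead lowest at 24 h, with 143, 179.98 and 138 CPM against 208, 188 and 171 CPM at 12 h, then 959, 908 and 788 CPM at 72 h. At 24 h, the time of high CCA1, the Col-0 DMSO means of PWD, BAM3 and BAM4 were below their 12 h means and those of the other 7 genes above. Among 24, 48 and 72 h PWD gave an edgeR adjusted p of 1.39e-35 in Col-0 and GWD1 of 2.29e-30.

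The phosphatase genes rose from 12 h as well. SEX4 (AT3G52180, chr3:19349600-19353728, minus strand), which removes phosphate from glucan chains, stood in Col-0 DMSO libraries at 33.7, 33.3 and 27.8 CPM at 12 h, rising to 90.9, 104 and 98.2 CPM at 24 h, then 330.3, 334 and 289 CPM at 72 h. LSF1 (AT3G01510, chr3:198322-201810, minus strand), a SEX4-like protein that binds β-amylases, stood at 12.0, 9.65 and 9.10 CPM at 12 h, then 34.1, 41.5 and 37.6 CPM at 24 h, and had a mean of 51.2 ± 3.50 CPM (SD, n = 3) at 48 h. For both genes the 12 h libraries lay below every later library of Col-0. Between 12 h and later 67.3% of all genes tested differed there by edgeR, which is another measure than overlap. The share of all genes without overlap was not computed. Most of the rise of LSF1 was reached by 24 h and most of that of SEX4 by 48 h (258 ± 18.1 CPM). In the STAR matrix the differences among 24, 48 and 72 h in Col-0 did not pass in edgeR for SEX4 (adjusted p = 0.354) or LSF1 (adjusted p = 0.0722).

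The β-amylases did not move together. BAM1 (AT3G23920, chr3:8641181-8644449, plus strand), an amylase linked to stress and guard cells, was highest at 24 h, with 120.3, 109.6 and 117 CPM against 44.3, 37.4 and 36.2 CPM at 12 h, then 70.6, 72.3 and 80.1 CPM at 72 h. BAM3 (AT4G17090, chr4:9604962-9607402, minus strand), the main amylase of leaf starch breakdown, was lowest at 24 h, with 211, 274 and 260.4 CPM against 381, 392 and 356 CPM at 12 h, then 784, 824 and 782 CPM at 72 h. At 24 h every Col-0 DMSO library of BAM1 lay above, and every one of BAM3 below, all those of the other times. How many of all genes were set apart at 24 h was not computed. BAM4 (AT5G55700, chr5:22551734-22554964, plus strand), which has lost catalytic activity and acts as a regulator, moved least, from 36.0 ± 4.54 CPM at 12 h to 27.1 ± 1.77 CPM at 72 h. Its 12 h libraries in Col-0 (40.4, 36.1 and 31.4 CPM) lay above all its later DMSO libraries. In icals3m BAM3 was higher at 12 h than later (0.25, adjusted p = 0.0225), a call that the STAR matrix lost (adjusted p = 0.107) and that was lost without DMSO replicate 1 or 3 of 12 h (adjusted p up to 0.142). In PD-plug BAM3 was lower at 12 h (-0.32, adjusted p = 0.00470), a call lost without its 12 h DMSO replicate 3 (adjusted p = 0.0852).

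The genes that handle the products rose with GWD1. MEX1 (AT5G17520, chr5:5772568-5775417, minus strand), the maltose exporter of the chloroplast envelope, stood in Col-0 DMSO libraries at 13.3, 13.1 and 12.9 CPM at 12 h, rising to 36.6, 31.2 and 36.4 CPM at 24 h, then 65.9, 71.4 and 60.2 CPM at 72 h. DPE1 (AT5G64860, chr5:25925173-25928879, minus strand), which rebuilds short glucans inside the chloroplast, stood at 33.9, 36.9 and 31.3 CPM at 12 h, rising to 61.1, 66.2 and 67.7 CPM at 24 h, then 181, 171 and 153 CPM at 72 h. DPE2 (AT2G40840, chr2:17044932-17051062, plus strand), which uses exported maltose in the cytosol, stood at 62.3, 53.4 and 46.8 CPM at 12 h, then at 328, 337 and 308 CPM already at 24 h, with 465, 473 and 414 CPM at 72 h. None of the 12 h DMSO libraries of these 3 genes overlapped a later one. In Col-0 67.3% of all genes tested differed between 12 h and later by edgeR, which is another measure. How many of all genes had no overlap was not computed. In icals3m DMSO leaves the difference of DPE2 among the later times was small (adjusted p = 0.0162) and was lost without replicate 2 or 3 of 24 h or replicate 2 of 72 h (adjusted p up to 0.0949), and in the STAR matrix (adjusted p = 0.331).

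**Figure D2:**
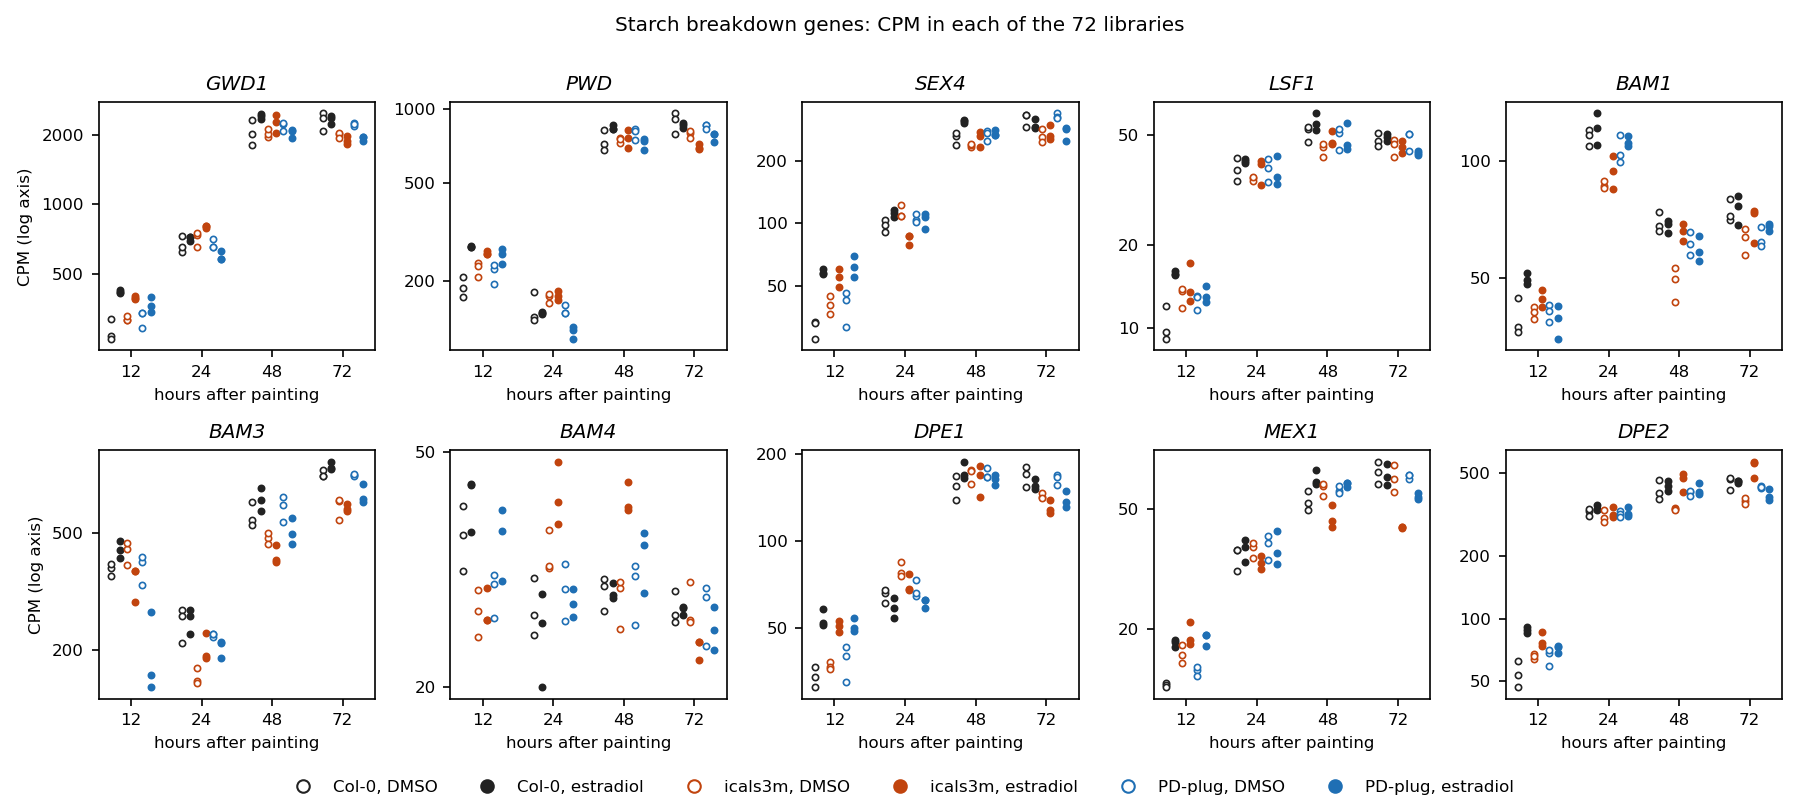
CPM on a log axis of the 10 starch breakdown genes against hours after painting in each of the 72 libraries, with open points for DMSO and filled points for estradiol. Most genes rose from 12 h to 48 and 72 h in every genotype, BAM1 was highest and BAM3 and PWD were lowest at 24 h in DMSO leaves, and BAM4 stayed between 19.9 and 48.1 CPM.

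Scaled to the longest annotated transcript, so that genes can be compared, BAM3 had the highest level at 12 h in Col-0 DMSO leaves with 179 ± 8.61 CPM per kb (SD, n = 3). It was followed by GWD1 (56.7 ± 6.30) and PWD (48.6 ± 4.75), whose ranges of mean and SD overlap, and LSF1 had the lowest level (4.33 ± 0.662). At 24 h GWD1 (133 ± 11.1 CPM per kb) and BAM3 (118 ± 15.8) led, with overlapping ranges, followed by DPE2 (95.2 ± 4.26). At 72 h GWD1 led with 455 ± 40.0 CPM per kb ahead of BAM3 with 379 ± 11.3. BAM4, whose mean was already the lowest of the 10 at 24 h, was lowest with 13.6 ± 0.887. With the coding length in place of the transcript, the first and last places at these times stayed the same. This order of genes rests on the main matrix and was not computed in the STAR matrix. There the median share of the main count was 16.5% for GWD1 and 78.3% for BAM3, with 15.8% for MEX1 and 31.4% for BAM4. The order between genes is therefore uncertain.

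Of the sum of squares of each gene's log2 CPM over the 72 libraries, time took 98.1% in GWD1, 97.8% in PWD and 97.4% in DPE2, and between 94.2% and 96.2% in MEX1, DPE1, SEX4 and LSF1. It took 88.8% in BAM1 and 82.8% in BAM3. Treatment as a main term took at most 2.80%, in BAM4. BAM4 was the exception throughout, with 19.9% for time and 56.4% for the interactions of time, genotype and treatment. These shares describe 72 libraries of 4 times and weigh the times equally.

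**Figure D3:**
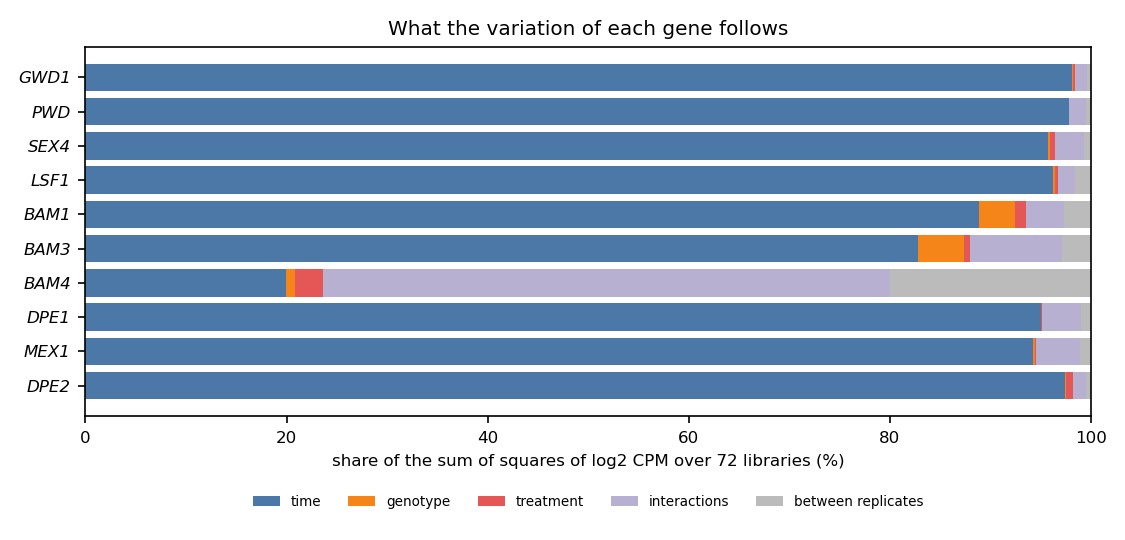
Share in percent of each gene's sum of squares of log2 CPM over 72 libraries taken by time, genotype, treatment, their interactions and the spread between replicates. Time fills 82.8% or more of the bar in 9 genes and 19.9% in BAM4.

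As a description over the 24 group means, which share the 4 times, LSF1 and DPE2 were the most alike pair of the 10 (Pearson r = 0.992), followed by GWD1 and DPE1 (0.990). BAM4 had a negative r with each of the other 9, from -0.36 with BAM3 to -0.19 with DPE1. Among 17291 other genes with a mean of at least 1 CPM, the gene most like LSF1 was PHS1 (r = 0.994), the plastidial starch phosphorylase. The gene most like MEX1 was COR15A (0.993), known for its induction by cold, the gene most like DPE2 was PGRL1B (0.990) of cyclic electron flow, and the gene most like PWD was THIC (0.993) of thiamine synthesis. AT4G30650 was most like both GWD1 (0.992) and SEX4 (0.992), AKT2, a potassium channel of the phloem, was most like BAM1 (0.977), and PAM1 was most like DPE1 (0.987). The likeness was lower for BAM3 with PCMP-H8 (0.962) and BAM4 with BRIZ1 (0.851).

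Most of these genes rose with estradiol in wild-type leaves at 12 h. In Col-0, which carries no construct, 8 of the 10 rose, where 38.6% of all genes were called and 21.9% rose: GWD1, PWD, SEX4, LSF1, BAM1, DPE1, MEX1 and DPE2. SEX4 went from 33.7, 33.3 and 27.8 CPM in DMSO to 60.4, 57.1 and 58.1 CPM in estradiol, a log2 difference of 0.89 ± 0.09 (SE, adjusted p = 9.06e-12) by edgeR. DPE2 went from 62.3, 53.4 and 46.8 to 90.6, 85.4 and 88.2 CPM, a log2 difference of 0.70 ± 0.08 (SE, adjusted p = 5.78e-11). In all 8 genes, and in BAM3, every estradiol library lay above every DMSO library, which held for 27.5% of all genes tested. The others rose by 0.66 (DPE1), 0.63 (LSF1), 0.56 (GWD1), 0.54 (PWD), 0.46 (MEX1) and 0.34 (BAM1) on the log2 scale, and the median of the 10 was 0.55 beside 0.07 over all genes tested. BAM3 (0.23, interval -0.02 to 0.47) and BAM4 (0.21, interval -0.01 to 0.43) did not pass. In the STAR matrix PWD (0.88, adjusted p = 0.107), SEX4 (1.01, adjusted p = 0.305) and MEX1 (0.55, adjusted p = 0.0506) did not pass and the other 5 did. With a fit to the 6 libraries alone the same number of genes passed, but 44.7% of all calls were then higher against 56.7% in the fit to all libraries.

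Some clock genes moved beside them in the same leaves. In Col-0 at 12 h PRR7 (-1.05), PRR5 (-0.47) and GI (-1.36) fell with estradiol and TOC1 (0.53) rose. These were 4 of 9 clock genes, where 38.6% of all genes were called. TOC1 stood at 147, 126 and 123 CPM in DMSO and 199, 195 and 179 CPM in estradiol libraries. GI was at 1.31 ± 0.299 CPM in DMSO and 0.473 ± 0.422 CPM in estradiol (SD, n = 3), low in both. The 12 h DMSO and estradiol leaves of Col-0 thus differed in these 4 clock transcripts as well as in starch genes. Whether the leaves were taken at the same minute is not given in the sources used here. The part of clock state in these differences was not tested. Of 3 epidermis markers 1 rose, with summed levels of 23.4 to 29.9 CPM in DMSO and 41.1 to 49.6 CPM in estradiol, and of 5 mesophyll markers 3 rose (20798 to 22526 against 24049 to 26199 CPM). Of 6 guard cell markers 2 rose (54.5 to 64.6 against 66.8 to 73.1 CPM), and of 5 phloem markers 2 rose and 1 fell (882 to 979.5 against 1028 to 1097 CPM). The root gene PYK10, the only 1 of its list tested, rose (0, 0.0681 and 0.392 CPM in DMSO, 1.21, 1.24 and 0.382 CPM in estradiol). The part of these markers was not tested.

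At later times few of the 10 passed in the wild type. At 24 h none of the 10 passed in Col-0 (0.984% of all genes did; 1 of the 10 had an unadjusted p under 0.05, and DESeq2 called 0). At 72 h none did either (0.0141% of all genes; 0 at an unadjusted p under 0.05 and 0 by DESeq2). At 48 h GWD1 (0.23 ± 0.07 SE, adjusted p = 0.0283) and MEX1 (0.24 ± 0.08 SE, adjusted p = 0.0484) were called higher, where 6.67% of all genes were called and 2.48% were higher. Both calls rest on a thin margin. Each was lost when any library but DMSO replicate 2 was left out (adjusted p up to 0.310 for GWD1 and 0.266 for MEX1) and in the STAR matrix, which gave 0.28 (adjusted p = 0.0823) for GWD1 and 0.36 (adjusted p = 0.446) for MEX1. MEX1 was also lost with RLE scaling (0.0507) or with no filter (0.0589). In the same 48 h leaves 2 of 5 mesophyll markers rose (39924 to 45336 CPM in DMSO, 45732 to 50544 CPM in estradiol) and 1 of 3 epidermis markers did (36.4 to 41.1 against 47.9 to 53.5 CPM), and their part was not tested. Tested directly, the estradiol difference at 12 h exceeded its mean at the later times for 8 of the 10 in Col-0, where 26.3% of all genes differed in this way and 14.4% upward. The same test called 5 in icals3m, all higher at 12 h (20.2% of all genes, 10.7% higher), and 6 in PD-plug, where 17.2% of all genes were called. In PD-plug 5 were higher at 12 h and BAM3 was lower (-0.77 ± 0.14 SE, adjusted p = 6.63e-05). SEX4 had the largest such excess in Col-0 (0.77) and in PD-plug (0.71), and DPE1 in icals3m (0.56). Of these 19 calls 11 were lost in the STAR matrix (adjusted p from 0.0839 to 1.00): PWD, SEX4 and MEX1 in all 3 genotypes, LSF1 in Col-0 and GWD1 in icals3m. GWD1 in icals3m (0.22) was also lost without 11 of the 24 libraries and with RLE scaling, DESeq2 and no filter (adjusted p up to 0.0784). Those 11 were estradiol replicates 1, 2 and 3 and DMSO replicates 1 and 2 of 12 h, DMSO replicates 1 and 2 of 24 h, estradiol and DMSO replicate 3 of 48 h, and estradiol replicate 3 and DMSO replicate 2 of 72 h (adjusted p up to 0.103). PWD in icals3m was lost without estradiol replicate 2 or DMSO replicate 1 of 12 h or estradiol replicate 3 of 48 h (up to 0.139), and BAM1 in Col-0 without DMSO replicate 3 of 12 h (0.0622).

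**Figure D4:**
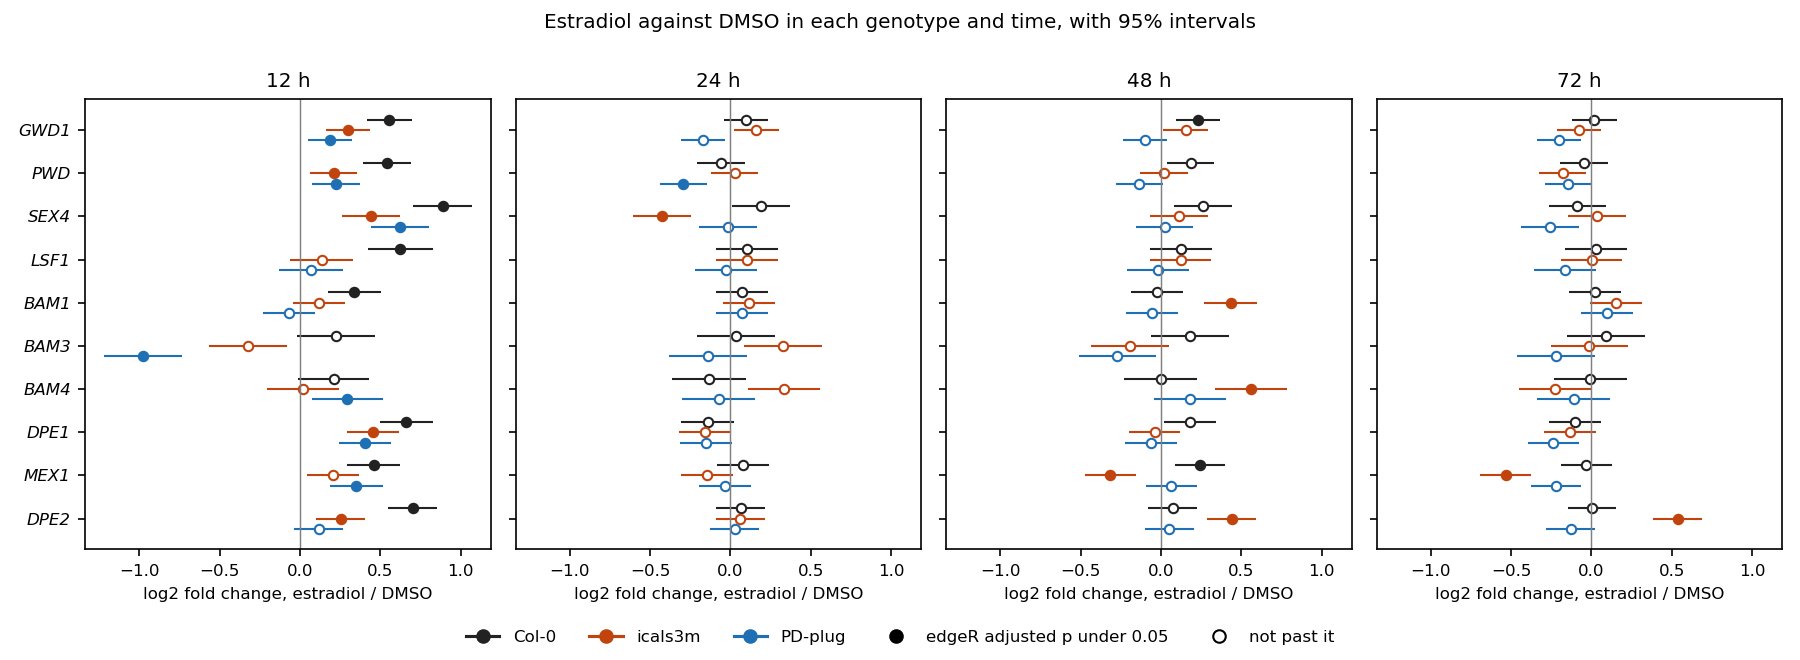
Log2 fold change of estradiol over DMSO for the 10 genes in Col-0, icals3m and PD-plug at 12, 24, 48 and 72 h, with 95% intervals and filled points for an edgeR adjusted p under 0.05. At 12 h most points lie to the right of 0 and BAM3 in PD-plug lies at -0.98; at 72 h MEX1 and DPE2 of icals3m part in opposite directions.

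In the inducible lines fewer of the 10 rose at 12 h. In icals3m 5 of the 10 rose at 12 h (17.2% of all genes called, 8.46% higher): GWD1 (0.30), PWD (0.21), SEX4 (0.44), DPE1 (0.45) and DPE2 (0.25). In PD-plug 6 rose and BAM3 fell (27.1% of all genes called, 12.6% higher): GWD1 (0.19), PWD (0.22), SEX4 (0.62), BAM4 (0.30), DPE1 (0.40) and MEX1 (0.35). Of 9 clock genes CCA1 (-1.87), LHY (-1.43), PRR7 (-0.43) and GI (-1.65) fell in icals3m, where 17.2% of all genes were called. PRR5 (-0.55) and GI (-0.98) fell in PD-plug, where 27.1% of all genes were called. CCA1 and GI stood low in Col-0 DMSO leaves at 12 h, where a large fold change can be a small difference in level. Their 12 h levels in the lines are not given here. In the STAR matrix SEX4 turned to -0.21 (adjusted p = 0.951) in icals3m, where PWD (0.15, adjusted p = 0.936) and DPE2 (0.23, adjusted p = 0.259) did not pass either. In PD-plug MEX1 turned to -0.11 (adjusted p = 0.837) there and only BAM3 and DPE1 were kept. GWD1 (0.24, adjusted p = 0.0747), PWD (0.25, adjusted p = 0.787), SEX4 (0.48, adjusted p = 0.740) and BAM4 (0.44, adjusted p = 0.223) were lost. PWD in icals3m was lost without any library but DMSO replicate 2 (adjusted p up to 0.236), with RLE scaling, with no filter and in a fit to the 6 libraries alone. DPE2 in icals3m was lost without estradiol replicate 2 or DMSO replicate 1 (adjusted p up to 0.148). In PD-plug GWD1 was lost without estradiol replicate 2 or 3 or DMSO replicate 2 (up to 0.267), and PWD without estradiol replicate 1 or 3 or DMSO replicate 2 (up to 0.178). BAM4 there was lost without estradiol replicate 1 or 3 or DMSO replicate 2 or 3 (up to 0.244). DESeq2, RLE scaling and the unfiltered fit also lost GWD1 and BAM4 there.

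BAM3, the main leaf β-amylase, fell at 12 h in PD-plug leaves. It stood at 400.1, 414 and 333 CPM in DMSO and 149, 270.1 and 164 CPM in estradiol libraries, with no overlap. The log2 difference was -0.98 ± 0.12 (SE, adjusted p = 1.59e-08) by edgeR, a 1.97-fold fall and the largest treatment difference of any of the 10 genes, and the STAR matrix gave -0.93 (adjusted p = 1.60e-06). In Col-0 BAM3 stood at 381, 392 and 356 CPM in DMSO and 471, 412 and 438 CPM in estradiol, so the DMSO leaves of both genotypes overlapped while the estradiol leaves did not. In icals3m BAM3 stood at 442, 389 and 464 CPM in DMSO and 291, 371 and 372 CPM in estradiol, also with no overlap, but did not pass the test (-0.33, interval -0.57 to -0.08, adjusted p = 0.0539). Mesophyll markers fell in the same PD-plug leaves, 3 of 5 called lower and 1 higher, with summed levels of 21922 to 24202 CPM in DMSO and 16686 to 19561 CPM in estradiol. Of 3 epidermis markers 1 rose (24.1 to 30.9 against 46.8 to 48.4 CPM) and of 5 phloem markers 1 rose (911 to 993 against 1051 to 1108 CPM), while none of 6 guard cell markers was called (61.9 to 68.2 against 62.8 to 74.1 CPM). In icals3m at 12 h 1 of 3 epidermis markers rose (27.3 to 38.9 against 46.7 to 53.8 CPM) and 2 of 5 mesophyll markers did (19922 to 22426 against 19780.1 to 24603 CPM, overlapping). The part of these markers in the 12 h differences was not tested.

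Set against the estradiol response of the wild type, the 12 h response of PD-plug was lower for 6 of the 10 genes, where 8.30% of all genes differed and 6.19% were lower. The differences of the effects were -1.20 ± 0.17 (SE, adjusted p = 2.96e-06) for BAM3, -0.59 ± 0.11 (SE, adjusted p = 1.45e-04) for DPE2 and -0.56 ± 0.14 (SE, adjusted p = 0.00612) for LSF1 by edgeR. They were -0.41, -0.37 and -0.32 for BAM1, GWD1 and PWD. DPE2 shows the pattern: estradiol libraries of PD-plug held 73.0, 68.0 and 73.8 CPM against 68.4, 59.2 and 70.7 CPM in DMSO, where Col-0 had gone from 62.3, 53.4 and 46.8 to 90.6, 85.4 and 88.2 CPM. In icals3m 3 genes were lower against Col-0 (3.16% of all genes differed, 1.63% lower): DPE2 (-0.45 ± 0.11 SE, adjusted p = 0.0116), LSF1 (-0.49 ± 0.14 SE, adjusted p = 0.0379) and SEX4 (-0.45 ± 0.13 SE, adjusted p = 0.0365). Both line comparisons use the same Col-0 libraries, in which the 12 h DMSO means were the lowest of the 3 genotypes for 9 of the 10 genes, all but BAM4 (for DPE2, SEX4 and LSF1 54.2 ± 7.77, 31.6 ± 3.29 and 10.3 ± 1.57 CPM, SD, n = 3). PRR7 parted from Col-0 in the same comparisons, by 0.87 in PD-plug and 0.61 in icals3m, and 4 of 5 mesophyll markers were lower in PD-plug.

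How firmly these differences stand varied. In the STAR matrix only BAM3 passed against Col-0 in PD-plug (-1.17, adjusted p = 1.09e-04), with DPE2 at -0.55 (adjusted p = 0.0515), and none of the 3 passed in icals3m (adjusted p from 0.242 to 0.722). Leaving out Col-0 DMSO replicate 3 alone lost GWD1, PWD and BAM1 in PD-plug and SEX4, LSF1 and DPE2 in icals3m, with adjusted p of up to 0.0571 for GWD1 and 0.0899 for DPE2. BAM1 in PD-plug was also lost without PD-plug replicate 1 of either treatment (up to 0.0861). PWD in PD-plug held without only 3 of the 12 libraries, Col-0 DMSO replicate 1, PD-plug estradiol replicate 3 and PD-plug DMSO replicate 2 (adjusted p otherwise up to 0.193), and was lost with RLE scaling. SEX4 in icals3m held without only Col-0 DMSO replicates 1 and 2, icals3m estradiol replicate 2 and DMSO replicate 1 (up to 0.181 otherwise), and LSF1 without only Col-0 DMSO replicate 1, icals3m estradiol replicate 2 and DMSO replicate 1 (up to 0.175). BAM3, LSF1 and DPE2 in PD-plug passed whichever library was left out. The lines themselves differed at 12 h in BAM3 alone, with an icals3m effect minus PD-plug effect of 0.65 ± 0.17 (SE, adjusted p = 0.0384), where 1.19% of all genes differed. That call was lost in the STAR matrix and with no filter. It was also lost without 8 of the 12 libraries, all but estradiol replicate 1 and DMSO replicate 3 of icals3m and estradiol replicate 2 and DMSO replicate 3 of PD-plug (adjusted p up to 0.228).

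At 24 h a single gene was called in each line, and in icals3m the number depended on the setting. There DESeq2 and a fit to the 6 libraries alone called 3, with BAM3 and BAM4 besides SEX4, RLE scaling and counts divided by 4 called 2, with BAM4, and leaving out estradiol replicate 1 called 2. Fitted to all libraries, BAM3 had 0.33 (adjusted p = 0.0955) and BAM4 0.33 (adjusted p = 0.0589). In icals3m SEX4 fell, from 123, 109 and 108 CPM in DMSO to 86.9, 86.8 and 79.2 CPM in estradiol with no overlap (-0.43 ± 0.09 SE, adjusted p = 0.00176 by edgeR; 6.48% of all genes were called). In Col-0 SEX4 stood at 90.9, 104 and 98.2 and 107, 116 and 112 CPM, and against that response the fall in icals3m was -0.62 ± 0.13 (SE, adjusted p = 0.0105), where 0.259% of all genes differed. It was lost without icals3m estradiol replicate 3 or DMSO replicate 1 (adjusted p up to 0.0703) and in the STAR matrix, where SEX4 gave -0.53 (adjusted p = 0.822) for treatment and -1.14 (adjusted p = 0.848) against Col-0. In the same icals3m leaves 1 of 6 guard cell markers fell (43.4 to 49.3 CPM in DMSO, 35.8 to 46.3 CPM in estradiol) and 1 of 5 phloem markers did (729 to 769 against 701 to 734 CPM), and their part was not tested. In PD-plug PWD was called lower (-0.29 ± 0.07 SE, adjusted p = 0.0452; 0.490% of all genes were called), from 148, 149 and 159 to 116, 126 and 130.4 CPM. The call was lost whichever of the 6 libraries was left out (adjusted p up to 0.252), with no filter, and in the STAR matrix, which gave 0.13 (adjusted p = 1.00). Against Col-0 none of the 10 passed in PD-plug at 24 h (0.0330% of all genes did; 2 of the 10 had an unadjusted p under 0.05, and DESeq2 called 0). None differed between the lines either (0.358% of all genes; 5 of the 10 at an unadjusted p under 0.05, 0 by DESeq2), a comparison in which 61.8% of all calls were higher with RLE scaling and 51.3% with TMM.

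At 48 and 72 h the maltose genes parted in icals3m leaves: the exporter MEX1 fell while the cytosolic enzyme DPE2 rose. DPE2 stood at 48 h at 338, 335 and 333 CPM in DMSO and 492, 469.6 and 404 CPM in estradiol, and at 72 h at 367, 379 and 354 and 565, 556 and 474 CPM. Every estradiol library lay above every DMSO library at both times, with a log2 difference of 0.44 ± 0.08 (SE, adjusted p = 1.30e-05) at 48 h. At 72 h it was 0.54 ± 0.08 (SE, adjusted p = 1.45e-07). In Col-0 DPE2 stood at 72 h at 465, 473 and 414 CPM in DMSO and 456, 445 and 454 CPM in estradiol, so that icals3m started below the wild type in DMSO and ended above it in estradiol. Against the response of Col-0, 4 of the 10 differed at 48 h (DPE2, MEX1, BAM1 and BAM4, where 13.4% of all genes differed) and 2 at 72 h (DPE2 and MEX1, where 11.3% did). For DPE2 the difference was 0.37 ± 0.11 (SE, adjusted p = 0.0140) at 48 h. At 72 h it came to 0.53 ± 0.11 (SE, adjusted p = 3.34e-04). At 72 h it passed in every alternative run, with 0.59 (adjusted p = 0.0246) in the STAR matrix. At 48 h it was lost in the STAR matrix (0.46, adjusted p = 0.0854) and without Col-0 estradiol replicate 3, Col-0 DMSO replicate 2 or icals3m estradiol replicate 1 (adjusted p up to 0.0729).

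MEX1 went the other way. It stood in icals3m at 48 h at 59.4, 60.2 and 55.1 CPM in DMSO and 51.3, 45.4 and 43.6 CPM in estradiol, and at 72 h at 69.4, 62.4 and 56.7 and 43.5, 43.6 and 43.2 CPM. The groups did not overlap at either time, and the log2 differences were -0.32 ± 0.08 (SE, adjusted p = 0.00245) and -0.53 ± 0.08 (SE, adjusted p = 4.30e-07) by edgeR. In Col-0 MEX1 stood at 72 h at 65.9, 71.4 and 60.2 CPM in DMSO and 59.7, 63.4 and 70.2 CPM in estradiol. Against the response of Col-0 the difference was -0.56 ± 0.11 (SE, adjusted p = 2.83e-04) at 48 h. At 72 h it was -0.50 ± 0.11 (SE, adjusted p = 0.00119), and both passed whichever library was left out. All 4 of these calls were lost in the STAR matrix. Treatment in icals3m gave -0.51 (adjusted p = 0.123) at 48 h and -0.34 (adjusted p = 0.361) at 72 h there, and against Col-0 MEX1 had -0.87 (adjusted p = 0.0618) at 48 h and turned to 0.21 (adjusted p = 0.845) at 72 h. There the icals3m libraries held 19.3, 18.9 and 17.7 CPM in DMSO and 15.2, 15.1 and 14.1 CPM in estradiol at 72 h, again with no overlap. The Col-0 DMSO libraries held 21.2, 40.2 and 21.3 CPM, with replicate 2 far above the others.

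The β-amylase genes BAM1 and BAM4 rose in icals3m at 48 h, and at 72 h neither passed. BAM1 stood at 53.0, 49.7 and 43.5 CPM in DMSO and 62.4, 66.3 and 68.8 CPM in estradiol, and BAM4 at 29.3, 30.1 and 25.1 and 39.9, 40.3 and 44.5 CPM. With DPE2 and MEX1 these were the 4 of the 10 called in icals3m at 48 h, where 18.3% of all genes were called. Against Col-0 the differences were 0.46 ± 0.12 (SE, adjusted p = 0.00369) for BAM1 and 0.56 ± 0.16 (SE, adjusted p = 0.0115) for BAM4. The DMSO libraries of icals3m lay below those of Col-0 for BAM1 (68.2, 73.9 and 66.0 CPM), and the estradiol libraries of both genotypes overlapped (69.0, 70.0 and 65.5 CPM in Col-0). For BAM4 the DMSO libraries of both overlapped, and the estradiol libraries of icals3m lay above those of Col-0 (28.3, 28.6 and 30.0 CPM). Treatment of BAM4 in icals3m at 48 h was lost in the STAR matrix (0.49, adjusted p = 0.204). Against Col-0, BAM1 passed there (0.44, adjusted p = 0.0159) and BAM4 did not (0.45, adjusted p = 0.523); BAM4 was also lost without icals3m DMSO replicate 3 (adjusted p = 0.0526). At 72 h, where 21.5% of all genes were called in icals3m, BAM1 (0.16, interval -0.01 to 0.32) and BAM4 (-0.23, interval -0.45 to -0.00) did not pass, and only MEX1 and DPE2 did.

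Leaf cell markers fell in the same icals3m leaves. At 72 h all 5 mesophyll markers fell, with summed levels of 37036 to 39617 CPM in DMSO and 25069.5 to 27560 CPM in estradiol. So did 4 of 5 phloem markers (703 to 732 against 511 to 536 CPM), and 1 of 3 epidermis markers (34.8 to 37.8 against 19.8 to 22.4 CPM). Of 6 guard cell markers 1 fell (60.2 to 67.0 against 52.2 to 59.6 CPM). At 48 h 3 of 5 mesophyll markers fell (41563 to 46382 against 31025 to 34181 CPM), as did 3 of 5 phloem (801 to 840.1 against 651 to 720.4 CPM) and 1 of 3 epidermis markers (35.5 to 40.2 against 23.1 to 29.7 CPM). None of 6 guard cell markers was called at 48 h (51.4 to 60.9 against 59.0 to 61.4 CPM). The part of these markers in the differences of the 4 genes was not tested. Of 9 clock genes CCA1 (1.06) and ELF4 (-0.57) differed at 48 h, where 18.3% of all genes were called. At 72 h PRR5 (-0.48) differed, where 21.5% of all genes were called.

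**Figure D5:**
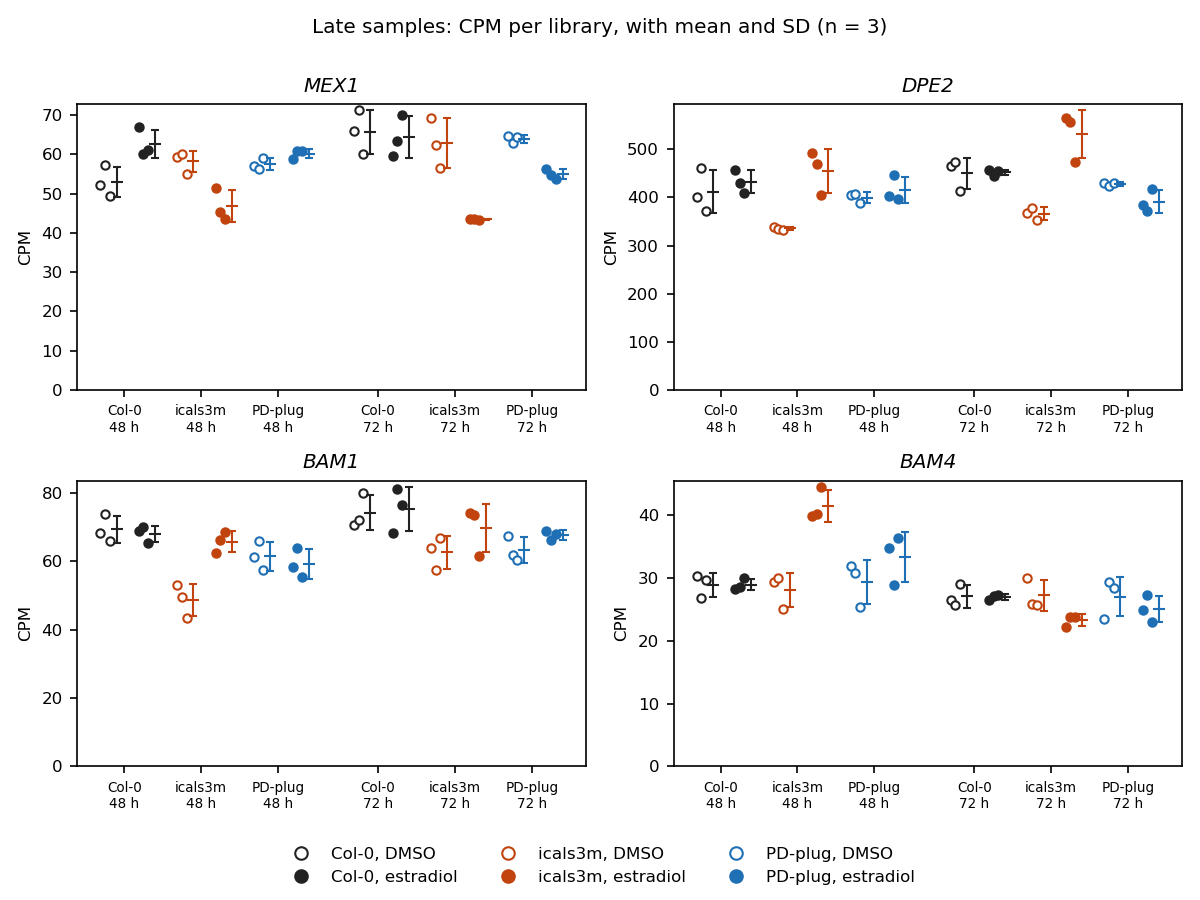
CPM of MEX1, DPE2, BAM1 and BAM4 in each library at 48 and 72 h, with open points for DMSO, filled points for estradiol and bars for mean and SD (n = 3). In icals3m the estradiol libraries of DPE2 lie above and those of MEX1 below their DMSO libraries at both times, while BAM1 and BAM4 are higher at 48 h.

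In PD-plug leaves none of these differences passed at 48 and 72 h. None of the 10 passed at 48 h, where 13.3% of all genes did (1 of the 10 had an unadjusted p under 0.05, and DESeq2 called 0), or at 72 h, where 2.65% did (4 unadjusted, 0 by DESeq2). At 72 h estradiol libraries lay below all DMSO libraries for 7 of the 10, which held for 11.3% of all genes, with differences from -0.26 for SEX4 to -0.13 for DPE2, and none of these passed; CCA1 (1.14) rose and ELF4 (-0.45) fell in these leaves. So did 1 of 5 mesophyll markers (36615 to 43124 against 34642 to 35884 CPM) and 1 of 6 guard cell markers (65.4 to 72.5 against 57.7 to 62.3 CPM), and their part was not tested. Against Col-0, GWD1 was lower at 48 h (-0.33 ± 0.10 SE, adjusted p = 0.0295; 5.56% of all genes differed), with 2223, 2236 and 2064 CPM in DMSO and 1935, 2069 and 2095 CPM in estradiol. The PD-plug arms overlapped, those of Col-0 did not (2017, 2301 and 1810.4 CPM in DMSO, 2416, 2445 and 2339.99 CPM in estradiol), and 4 of 5 mesophyll markers were lower against Col-0. The call was lost in the STAR matrix (-0.35, adjusted p = 0.176) and without Col-0 estradiol replicate 2, Col-0 DMSO replicate 1 or 3, PD-plug estradiol replicate 1 or PD-plug DMSO replicate 1 or 2 (adjusted p up to 0.177). At 72 h none passed against Col-0 (0.0942% of all genes did; 1 of the 10 unadjusted, 0 by DESeq2).

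Tested against each other, the lines differed at 48 h in 3 of the 10, where 5.16% of all genes differed, and at 72 h in DPE2 alone, where 5.35% did. At 48 h the icals3m effect exceeded that of PD-plug for BAM1 (0.49 ± 0.12 SE, adjusted p = 0.00522) and DPE2 (0.39 ± 0.11 SE, adjusted p = 0.0203) and was below it for MEX1 (-0.38 ± 0.11 SE, adjusted p = 0.0297). At 72 h DPE2 stood in PD-plug at 429.8, 423 and 429.5 CPM in DMSO and 384, 371 and 418 CPM in estradiol. The difference between the lines was 0.66 ± 0.11 (SE, adjusted p = 2.28e-05), with 0.62 (adjusted p = 0.0269) in the STAR matrix. BAM1 passed there too (0.50, adjusted p = 0.0117), whereas DPE2 at 48 h (0.42, adjusted p = 0.202) and MEX1 (-0.69, adjusted p = 0.264) did not. MEX1 at 48 h was also lost without replicate 2 or 3 of estradiol or 1 or 2 of DMSO in either line (adjusted p up to 0.126). DPE2 at 48 h was lost without estradiol replicate 1 or 2 of icals3m or 1 or 3 of PD-plug (up to 0.0685). At 72 h MEX1 was lower in the icals3m effect by -0.31 (interval -0.54 to -0.09) and did not pass (adjusted p = 0.0891).

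In mock-treated leaves 3 of the 10 differed from the wild type in icals3m and 1 in PD-plug. Over the mean of the 4 times in DMSO, icals3m had lower BAM1 (-0.28 ± 0.04 SE, adjusted p = 2.60e-07) and BAM3 (-0.26 ± 0.06 SE, adjusted p = 8.44e-04). It had higher MEX1 (0.12 ± 0.04 SE, adjusted p = 0.0215), where 19.1% of all genes differed. PD-plug had higher SEX4 (0.14 ± 0.04 SE, adjusted p = 0.0446), where 6.18% of all genes differed. Not every time had the direction of the mean. At 12 h icals3m DMSO leaves had a mean of 432 ± 38.4 CPM for BAM3 against 376 ± 18.1 in Col-0, and of 40.8 ± 1.43 against 39.3 ± 4.37 CPM for BAM1. At 72 h MEX1 had 62.8 ± 6.37 against 65.8 ± 5.61 CPM (SD, n = 3). MEX1 was lost in the STAR matrix (adjusted p = 1.000) and without 4 of the 24 libraries, Col-0 24 h replicate 2, Col-0 72 h replicate 3, icals3m 12 h replicate 3 and icals3m 72 h replicate 1 (up to 0.0635). SEX4 was lost in the STAR matrix, with RLE scaling, DESeq2 and no filter, and without 14 of the 24 libraries. It held without replicates 1 and 2 of 12 h, 2 of 24 h, 2 of 48 h or 1 and 2 of 72 h in Col-0. It also held without replicate 2 of 12 h, 3 of 24 h, 1 of 48 h or 2 of 72 h in PD-plug (adjusted p otherwise up to 0.120). BAM1 and BAM3 in icals3m passed in every alternative run.

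Of the 18 other starch breakdown genes 12 rose and none fell with estradiol at 12 h in wild-type leaves (median 0.45 beside 0.07 over all genes), where 21.9% of all genes rose. Among them were the phosphorylases PHS1 (0.69) and PHS2 (0.56), the debranching enzyme ISA3 (0.79) and the chloroplast glucose transporter pGlcT (0.49). In icals3m 6 rose at 12 h and none fell (8.46% of all genes rose), and in PD-plug 4 rose and BAM6 fell (-0.29), where 12.6% of all genes rose. Against the response of Col-0, PD-plug was lower at 12 h in 4 of the 18 (6.19% of all genes were lower): PHS1 (-0.39), PHS2 (-0.36), BAM2 (-0.50) and BAM6 (-0.80). In icals3m it was lower in PHS1 (-0.39) and pGlcT (-0.36), against 1.63% of all genes. At 48 h both lines were lower in LDA, a limit dextrinase that cuts branch points, and in BAM2. The differences were -0.44 and -0.57 in icals3m, against -0.37 and -0.48 in PD-plug. Of all genes 13.4% differed in icals3m and 5.56% in PD-plug at that time. At 72 h, where 11.3% of all genes differed, icals3m was lower in 4 of the 18: GWD2 (-0.61), BAM2 (-0.61), BAM9 (-0.88) and pGlcT (-0.29). PD-plug differed in none of them at 24 or 72 h and icals3m in none at 24 h (5, 2 and 5 of the 18 at an unadjusted p under 0.05). Within icals3m at 72 h 8 of the 18 fell and none rose (11.1% of all genes fell), so that DPE2 rose in leaves where its pathway neighbours either fell or did not pass.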

How the data were processed

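Leaf RNA from 72 samples was sequenced, and the gene counts that the authors deposited were analysed. Per the submitters' processing notes, which give no order or role, the tools were FastQC 0.11.8, Trim Galore 0.5.0, cutadapt 1.7, HISAT2 2.1.0, STAR 2.5, SAMtools 1.4.1 and StringTie 1.3.3 with the genome build TAIR10. The deposited values were treated as whole expected counts (estimated counts per gene); all are whole numbers, so rounding changed none of them, and they fall on multiples of 4 more often than on their neighbours, with 40727 cells at 4 against 8585 at 3 and 10399 at 5. Whether reads were counted by strand is not given in the sources used here. A second deposited matrix, of STAR counts, was an alternative.

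Genes passed edgeR's filterByExpr (minimum count 10, minimum total 15), which kept 21241 of 33602. edgeR 4.0.16 in R 4.3.3 fitted 24 group means to all 72 libraries with TMM scaling, trended and robust quasi-likelihood dispersions, and Benjamini-Hochberg adjustment over all genes tested in each of 35 comparisons, at a threshold of 0.05. Intervals are 95% and cover the spread between samples, and limits from a count of 0 (3 counts) cover counting error only. Alternatives were RLE scaling, DESeq2 1.42.0, no filter, the STAR matrix, counts divided by 4, a replicate block, the 6 libraries compared alone (treatment comparisons only), and leaving out each library.

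All 10 members were named. Of 18 other starch genes those called in a line against Col-0 were named, with others of that list and the clock genes PRR5, PRR7 and ELF4 chosen after their values were seen. For each member the most similar gene was that with the highest Pearson r of mean log2 CPM over the 24 groups. The members and lists were chosen with earlier results of these data known. Coordinates are those of RefSeq TAIR10.1; the notes name TAIR10.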

Additional observations from a re-analysis of the deposited data

Results flagged for a closer look

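A test of the difference itself, between times within a genotype or between genotypes at a time, passed for 41 values of these 10 genes, given here as differences of log2 fold changes by edgeR. The estradiol effect at 12 h differed from its mean at 24, 48 and 72 h in Col-0 for GWD1 (0.44), PWD (0.52), SEX4 (0.77), LSF1 (0.54), BAM1 (0.32), DPE1 (0.68), MEX1 (0.36) and DPE2 (0.65). In icals3m it differed for GWD1 (0.22), PWD (0.25), SEX4 (0.53), DPE1 (0.56) and MEX1 (0.54). In PD-plug it differed for GWD1 (0.34), PWD (0.41), SEX4 (0.71), BAM3 (-0.77), DPE1 (0.55) and MEX1 (0.41). These comparisons join times that also differ in clock transcripts, and the part of clock phase was not tested.

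Between genotypes, the icals3m effect differed from that of Col-0 at 12 h for SEX4 (-0.45), LSF1 (-0.49) and DPE2 (-0.45), and at 24 h for SEX4 (-0.62). At 48 h it differed for BAM1 (0.46), BAM4 (0.56), MEX1 (-0.56) and DPE2 (0.37), and at 72 h for MEX1 (-0.50) and DPE2 (0.53). The PD-plug effect differed from that of Col-0 at 12 h for GWD1 (-0.37), PWD (-0.32), LSF1 (-0.56), BAM1 (-0.41), BAM3 (-1.20) and DPE2 (-0.59), and at 48 h for GWD1 (-0.33). Between the lines, icals3m minus PD-plug, the effect differed at 12 h for BAM3 (0.65), at 48 h for BAM1 (0.49), MEX1 (-0.38) and DPE2 (0.39), and at 72 h for DPE2 (0.66). No search for single samples far from the others was made, since all groups hold 3.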

How the results depend on the processing

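Of 130 calls of a member in a comparison, 73 were kept in every other setting, 101 whichever library was left out, and 71 in both. The STAR matrix lost 57 of them, no filter 8, RLE scaling 7, DESeq2 4 and counts divided by 4 none. The 6 libraries alone, fitted for treatment comparisons only, lost 7 of 30 calls. The cause of these losses was not tested. All 7 changes of direction came from the STAR matrix. For treatment they were SEX4 in icals3m at 12 h (-0.21), MEX1 in PD-plug at 12 h (-0.11) and PWD in PD-plug at 24 h (0.13). For the estradiol effect at 12 h against later times PWD (-0.025) and SEX4 (-0.82) turned in icals3m and MEX1 (-0.28) in PD-plug. The last was MEX1 in icals3m against Col-0 at 72 h (0.21). The lowest count of these genes in the main matrix was 527. For SEX4 the STAR matrix held a median of 7.28% of the main count of the same library, and its lowest count there was 18. The part of depth was not tested.

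Numbers of the 10 genes called moved by more than 1.5 times as follows. In the STAR matrix the treatment count was 5 at 12 h and 0 at 48 h in Col-0, in icals3m 2 at 12 h, 0 at 24 h and 1 at 72 h, and in PD-plug 2 at 12 h and 0 at 24 h. There the estradiol effect at 12 h against later times gave 4 in Col-0, 1 in icals3m and 3 in PD-plug. In that matrix icals3m against Col-0 gave 0, 0, 1 and 1 at 12, 24, 48 and 72 h. PD-plug against Col-0 gave 1 at 12 h and 0 at 48 h there. For icals3m against PD-plug it gave 0 at 12 h and 1 at 48 h, and for the DMSO difference of PD-plug 0. DESeq2 gave 2 for PD-plug against Col-0 at 48 h and 3 for icals3m treatment at 24 h. RLE scaling gave 1 for Col-0 at 48 h, 2 for icals3m at 24 h and 0 for the DMSO difference of PD-plug. With no filter the counts were 1 for Col-0 at 48 h, 0 for PD-plug at 24 h, 0 for icals3m against PD-plug at 12 h and 0 for the DMSO difference of PD-plug. The 6 libraries alone gave 0 for Col-0 at 48 h, 3 for icals3m at 24 h, and 4 at 12 h and 0 at 24 h for PD-plug, and counts divided by 4 gave 2 for icals3m at 24 h.

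Leaving out a library gave 0 to 4 for Col-0 at 48 h, 3 to 6 for icals3m at 12 h, 1 to 2 for icals3m at 24 h, 4 to 7 for PD-plug at 12 h and 0 for PD-plug at 24 h. For the estradiol effect at 12 h against later times in icals3m it gave 3 to 6. Against Col-0 it gave 0 to 5 at 12 h and 0 to 1 at 24 h for icals3m, and 3 to 8 at 12 h and 0 to 2 at 48 h for PD-plug. Between the lines it gave 0 to 1 at 12 h, 1 to 3 at 48 h and 1 to 2 at 72 h, and for the DMSO difference of PD-plug 0 to 1.

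Same-numbered samples showed no clear shared deviation, and whether the numbers pair samples is not given in the sources used here. Deviations of same-numbered samples correlated between -0.078 and 0.086 over 36 pairs, with a median of 0.0068, and 13 of 36 correlated best with their own number. With the replicate block the count for treatment in Col-0 at 48 h was 1, since MEX1 was lost, and no other member call was lost.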

Other observations

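Between the lines, some of the 18 other starch breakdown genes differed in the response to estradiol at 48 and 72 h. Of all genes 5.16% differed at 48 h and 5.35% at 72 h. The icals3m effect was below that of PD-plug for GWD2 at 48 h (-0.71 ± 0.19 (SE; adjusted p = 0.0143) by edgeR) and for BAM2 at 72 h (-0.42 ± 0.13 (SE; adjusted p = 0.0438)), and above it for LESV at 72 h (0.59 ± 0.18 (SE; adjusted p = 0.0439)), a protein of starch granule organisation. At 12 and 24 h none of the 18 passed this test, with 3 and 1 of them at an unadjusted p under 0.05.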
